A study of Danio rerio with 36 samples.

Results

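A set of 10 genes, of the 30490 in the deposited gene table, were followed across zebrafish development in wild-type and kctd15 mutant embryos and larvae: cacna1ba, unc80, map6a, sulf2b, hdc, lbh, pmepa1, cnn1a, wtip and cdhr2. They were picked by symbol because the mutant and wild-type levels lay far apart at 1 somite and mostly close together later. The genotype differences given here chose the genes, so they are descriptions and carry no test. The selection rule named no numerical limit.

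The study sequenced polyA RNA of whole zebrafish at 6 stages. These were the 1 somite embryo, the 25 hour embryo (25 hours post fertilization, hpf) and fish of 2, 5, 9 and 14 days. At each stage 3 biological replicates were wild type and 3 carried a mutation in kctd15, giving 12 groups and 36 libraries, and the labels name no treatment for either genotype. The sources used here do not say which kctd15 paralog is mutated, what the lesion is, which strain or clutches were used, how many animals made up a library, or whether the mothers of the mutant embryos were mutant themselves. The study's title asks about the effect of Kctd15 expression in early development.

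Kctd15 is a BTB domain protein known in zebrafish to restrain neural crest formation and to inhibit the transcription factor AP-2. An early fish embryo starts with RNA laid down in the egg, and its own genome takes over before somites form. RNA measured at 1 somite can therefore be maternal RNA that has not yet decayed, RNA made by the embryo, or both. Libraries of eggs or cleavage stages were not analysed here, so these sources cannot be told apart for any of the 10 genes. In RNA of whole embryos, fewer cells of a type and less RNA per cell cannot be told apart either.

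Libraries held between 5512118 and 12523019 estimated counts. At 25 hpf the mutant libraries were shallower, at 5512118 to 6667139 counts, than the wild-type libraries at 7933768 to 10771329 counts. Levels below are CPM, which brings the counts of each library to a common total, scaled by TMM factors, a correction for library composition. They are not divided by transcript length and so are compared within a gene only. The kctd15 paralogs kctd15a and kctd15b were not used to check the genotype labels. Which of them is mutated is not stated, and a mutation need not lower the RNA of its own gene. At 1 somite kctd15a was 107 ± 8.47 CPM in wild type and 162 ± 5.39 CPM in the mutant (SD, n = 3 each). Kctd15b was 2.02 ± 0.598 and 1.73 ± 0.583 CPM. Kctd15a was higher in the mutant without overlap at every stage, with 22.8 ± 4.05 and 74.3 ± 7.11 CPM at 25 hpf. Kctd15b was so from 25 hpf on, with 5.21 ± 0.827 and 8.1 ± 1.49 CPM at that stage. A list of 27 oocyte and maternal RNAs summed to 242 to 303 CPM in wild type and 256 to 346 CPM in the mutant at 1 somite. All 27 were detected in both genotypes. Much of the sum came from pou5f3, at 98.4 CPM in wild type and 52.9 CPM in the mutant, and from bcl2l10, at 83.4 and 133 CPM. These differed in opposite directions, so like sums do not show like levels of single RNAs. At 14 day the list still summed to 61.5 to 74.3 CPM in wild type and 52.5 to 59.1 CPM in the mutant, so it does not measure maternal RNA alone. Of the list's 11 genes that could be tested at 1 somite, 3 were higher and 2 lower in the mutant. Among all tested genes 13.6% were called in either direction. The list's median log2 fold change was 0.26 against 0.02 for all genes. A list of 16 early mesoderm genes, a check of stage, summed to 1610 to 1660 CPM in wild type and 1550 to 1670 CPM in the mutant. Of these 16 genes 1 was higher and 1 lower in the mutant at 1 somite, again against 13.6% of all genes. The higher was tb, with a log2 fold change of 0.68 ± 0.13 (edgeR adjusted p = 0.00644). Its call held when any library was left out but not in a fit over all 36 libraries. The part of these maternal and stage markers in the results below was not tested.

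At 1 somite 5 genes were lower in the mutant (cacna1ba, unc80, lbh, cnn1a and wtip) and 5 were higher (map6a, sulf2b, hdc, pmepa1 and cdhr2). In all 10 the 3 mutant libraries lay on 1 side of the 3 wild-type libraries, which 31.7% of the 16844 tested genes also did at this stage. By the edgeR test 13.6% of those genes were called, 6.77% higher and 6.79% lower in the mutant. Since this contrast chose the 10 genes, nothing is read from their count. By absolute fitted log2 fold change they ranked between 12 (cnn1a) and 161 (lbh) of those 16844 genes. Cnn1a held 0 counts in the mutant, so its fitted size and rank depend on the fitting, and its counts give only a lower bound of 31.3-fold.

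**Figure D1:**
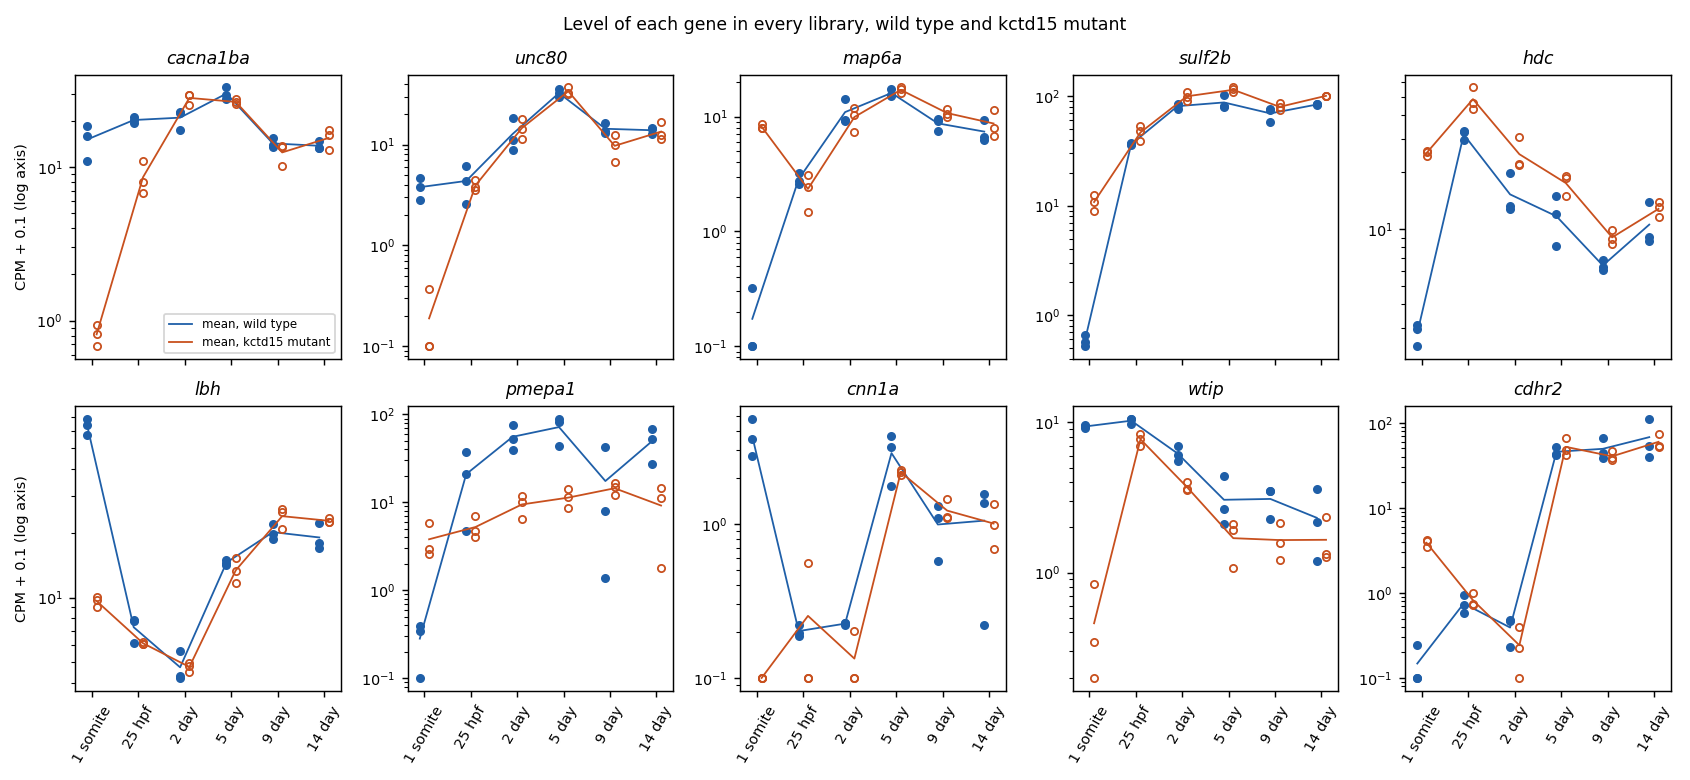
Level of each of the 10 genes in every library, as CPM + 0.1 on a log axis, against stage. Filled points are wild-type libraries, open points are mutant libraries, and lines join group means of 3 libraries. The genotypes stand apart in every panel at 1 somite. At 5 day lbh, unc80, map6a, cnn1a and cdhr2 overlap, while cacna1ba, sulf2b, hdc, wtip and pmepa1 do not.

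The first 3 genes act in excitable cells. Cacna1ba encodes the pore-forming subunit of the N-type voltage-gated calcium channel, which triggers transmitter release at nerve terminals. Its level at 1 somite was 15.7, 18.4 and 10.9 CPM in the wild-type libraries and 0.843, 0.717 and 0.581 CPM in the mutant libraries. Every mutant library was far below the lowest wild-type library, and the fitted log2 fold change was -4.35 ± 0.31 (SE). At 25 hpf cacna1ba was still lower in the mutant, with 10.8, 6.69 and 7.92 CPM against 20.9, 20.2 and 19.2 CPM. At 2 day the order turned, with 25.2, 29.4 and 29.5 CPM in the mutant above 22.8, 17.3 and 22.4 CPM in wild type, a log2 fold change of 0.50 ± 0.14. From 5 day on the log2 fold changes lay between -0.21 and 0.15, with the groups just apart at 5 day and overlapping later.

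Unc80 encodes a large auxiliary subunit of the sodium leak channel NALCN, which sets the resting excitability of neurons. In wild type at 1 somite it was 2.71, 4.62 and 3.73 CPM, from 91 counts in all. The mutant libraries held 0, 0 and 0.267 CPM, from 3 counts. The ratio of counts was 33.1-fold lower in the mutant, with a 95% exact interval of 11 to 164 that covers counting error only. From 25 hpf on the genotypes overlapped at every stage but 9 day, when the mutant was lower at 9.83, 6.66 and 12.4 CPM against 13.5, 16.4 and 12.9 CPM.

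Map6a encodes a microtubule-associated protein whose mammalian counterpart stabilizes microtubules in neurons. It went the other way: 2 counts were found in wild type at 1 somite, giving 0, 0.22 and 0 CPM, while the mutant libraries reached 8.53, 7.86 and 7.81 CPM from 213 counts. The mutant ratio was 97.5-fold higher with a counting interval of 26.7 to 811. In the mutant the level was lower at 25 hpf than at 1 somite, 2.24 ± 0.818 against 8.07 ± 0.407 CPM, while in wild type it was higher at 25 hpf, 2.76 ± 0.332 CPM. From 25 hpf to 5 day and at 14 day the map6a genotype groups overlapped, and at 9 day the mutant was slightly higher with 9.84 to 11.6 CPM against 7.32 to 9.44 CPM.

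The next 4 genes act in signalling. Sulf2b encodes an extracellular sulfatase that removes sulfate groups from heparan sulfate and so alters how growth factors bind it. At 1 somite it was 0.557, 0.42 and 0.467 CPM in wild type and 8.79, 10.8 and 12.5 CPM in the mutant, a fitted log2 fold change of 4.40 ± 0.29. No mutant library came near the wild-type range. In wild type it then rose to 36.3 ± 0.681 CPM at 25 hpf, a level the mutant also reached, at 46.6 ± 7.36 CPM. The later log2 fold changes were all positive and small, from 0.18 ± 0.12 at 9 day to 0.39 ± 0.10 at 25 hpf, and the groups stood apart at every later stage except 9 day.

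Hdc encodes histidine decarboxylase, the enzyme that makes histamine. At 1 somite it was 2.29, 2.99 and 2.84 CPM in wild type and 25.4, 25.7 and 24.3 CPM in the mutant, a log2 fold change of 3.19 ± 0.16. The mutant libraries at 1 somite lay below those of wild type at 25 hpf, which held 29.3 to 33.0 CPM (31.5 ± 1.99). The difference between genotypes shrank but kept its direction. Its log2 fold change was 0.64 ± 0.11 at 25 hpf, 0.77 ± 0.19 at 2 day, 0.57 ± 0.20 at 5 day and 0.49 ± 0.16 at 9 day. All 3 mutant libraries exceeded all 3 wild-type libraries at each of those stages, by as little as 14.9 against 14.8 CPM at 5 day, and only at 14 day did the groups overlap.

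Lbh encodes a transcription cofactor first described in the limb bud and heart of the mouse. It had 1528 counts in wild type at 1 somite and 252 in the mutant. The wild-type libraries held 64.2, 57.5 and 68.3 CPM and the mutant libraries 9.67, 10 and 8.97 CPM, a log2 fold change of -2.72 ± 0.12. By 25 hpf wild type had come down to 7.17 ± 0.964 CPM and the mutant stood at 6.03 ± 0.0945 CPM, with overlap. Both genotypes were lowest at 2 day, between 4.11 and 5.56 CPM, and overlapped through 9 day. At 14 day the mutant was higher by a small margin, 22.5, 23.4 and 22.5 CPM against 22.2, 18 and 16.9 CPM.

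Pmepa1 encodes a membrane protein that dampens TGF-beta signalling in mammals by holding back Smad proteins. At 1 somite it was 0.295, 0 and 0.247 CPM in wild type, 4 counts in all, and 5.74, 2.51 and 2.84 CPM in the mutant. The fitted log2 fold change was 4.38 ± 0.64, and it was 3.74 without wild type 2. At later stages its direction was the reverse. At 2 day the mutant held 9.97, 11.7 and 6.42 CPM against 52.3, 39.6 and 74.9 CPM in wild type, and the groups also stood apart at 5 day and 14 day, with log2 fold changes of -2.70 ± 0.26 and -2.42 ± 0.51. Wild-type libraries of a stage differed widely: they were 36.9, 21.0 and 4.62 CPM at 25 hpf and 43.0, 7.87 and 1.26 CPM at 9 day, and at both stages the genotypes overlapped. At 9 day the log2 fold change was -0.29 ± 0.77, and 1.64 without wild type 1. Pmepa1 thus goes against the description of the 10 genes as close together later.

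The last 3 genes act on the actin skeleton and cell contacts. Cnn1a encodes a calponin, an actin-binding protein best known from smooth muscle. At 1 somite it was 3.43, 2.66 and 4.68 CPM in wild type, from 86 counts, and no count fell in any mutant library. That is at least 31.3-fold lower in the mutant, with a floor of 3 counts over the group. At 25 hpf and 2 day neither genotype exceeded 3 counts, so no fold is given there, and from 5 day on the groups overlapped between 0.12 and 3.62 CPM.

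Wtip encodes a LIM domain protein of the Ajuba family, which links cell junctions to the actin skeleton. Its level at 1 somite was 9.35, 9.46 and 9.05 CPM in wild type and 0.736, 0.245 and 0.0988 CPM in the mutant. Wild type varied little, and the fitted log2 fold change was -4.70 ± 0.38, or -5.72 without mutant 1. Wtip stayed lower in the mutant at every later stage, with log2 fold changes of -0.39 ± 0.16 at 25 hpf, -0.69 ± 0.22 at 2 day, -0.93 ± 0.39 at 5 day, -0.96 ± 0.32 at 9 day and -0.52 ± 0.43 at 14 day. The groups stood apart at 25 hpf, 2 day and 9 day. At 5 day they only just did, the highest mutant and the lowest wild-type library both lying near 2.0 CPM, and at 14 day they overlapped.

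Cdhr2 encodes a protocadherin that in mammals joins the tips of intestinal microvilli. A single count was found in wild type at 1 somite, 0.144, 0 and 0 CPM, and 99 counts in the mutant, 3.94, 4.04 and 3.36 CPM. The mutant ratio was 90.7-fold higher, with a counting interval of 15.9 to 3620. As with map6a, the mutant level was lower at 25 hpf, 0.721 ± 0.163 CPM, where wild type was 0.65 ± 0.186 CPM and the groups overlapped. The genotypes also overlapped at 2 day, on 7 counts and 4 counts, and at 5, 9 and 14 day, when both held 36.2 CPM or more.

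**Figure D2:**
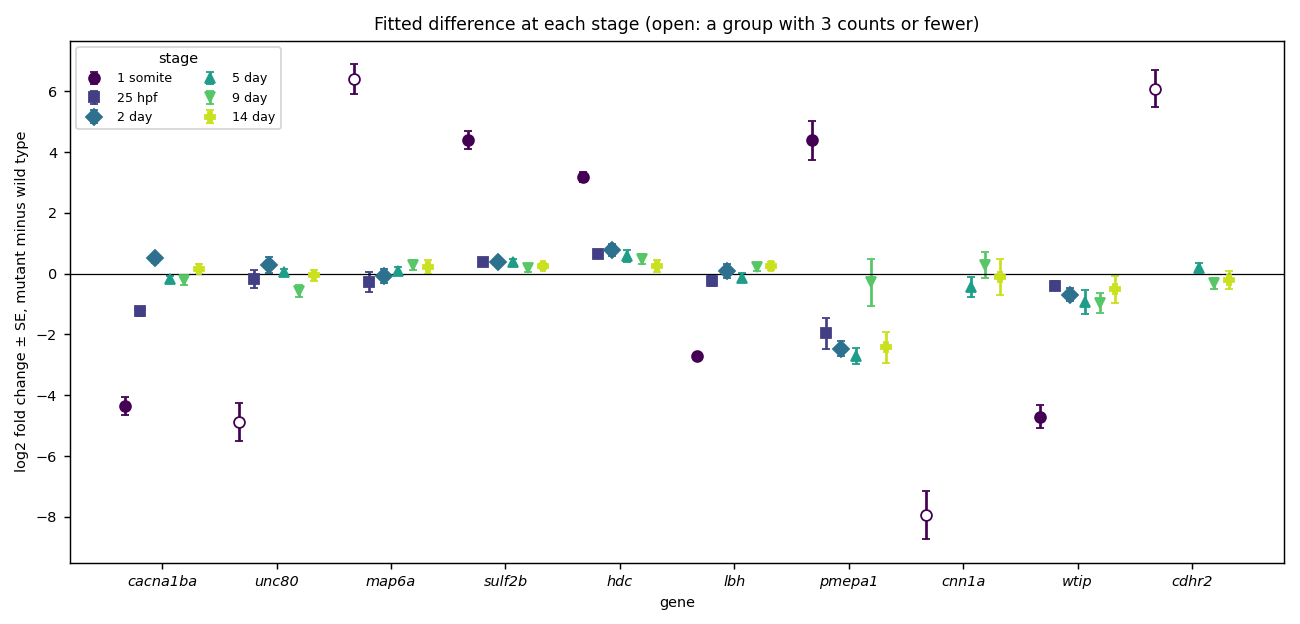
Fitted log2 fold change, mutant minus wild type, with its standard error, for each gene at each stage where it could be fitted. Open symbols mark fits in which a group held 3 counts or fewer, whose size depends on the fitting. The 1 somite points lie farthest from 0 in all 10 genes, and pmepa1 changes side, from 4.38 at 1 somite to -2.47 at 2 day.

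Set beside the wild-type course from 1 somite to 25 hpf, the 10 genes did not form a single class. Of the 5 that were higher in the mutant at 1 somite, all were at 2.99 CPM or less in every wild-type library of that stage. Sulf2b, hdc and pmepa1 were then much higher in wild type at 25 hpf, by log2 fold changes of 6.20 ± 0.20, 3.55 ± 0.16 and 6.88 ± 0.94. Map6a was higher at 25 hpf as well, 33.1-fold by counts with an interval of 8.88 to 278, and so was cdhr2, 15.3-fold with an interval of 2.44 to 638. Of the 5 that were lower in the mutant, lbh and cnn1a had a lower wild-type level at 25 hpf than at 1 somite, by -3.08 ± 0.13 for lbh and 35.5-fold by counts for cnn1a, with an interval of 11.7 to 176. Cacna1ba, unc80 and wtip had changed little in wild type, by 0.46 ± 0.16, 0.24 ± 0.31 and 0.17 ± 0.15. In this step 76.9% of 19730 genes changed, the median absolute log2 change was 0.924, and the signed median was 0.12. The wild-type 1 somite libraries took part in the choice, so no test is given for the 10 genes in this step. A gene far apart at 1 somite and close at 25 hpf must change in at least 1 genotype. Low wild-type levels at 1 somite in genes higher in the mutant also follow in part from the choice. The pattern is therefore a description only.

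Lists of other genes show what that step holds. Of 10 maternal list genes that could be tested, 9 fell and 1 rose between 1 somite and 25 hpf in wild type, with a median log2 fold change of -3.38. Of 16 early mesoderm genes 14 fell and 1 rose, and of 9 larval organ genes 8 rose and none fell. Of all 19730 genes tested in this step 8236 rose and 6937 fell. The fall of lbh, by 3.08 on the log2 scale, lies near the median of the maternal list and also within the range of falling mesoderm genes, so the course alone did not sort it as maternal or embryonic RNA.

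Among the maternal list genes that differed between genotypes at 1 somite were pou5f3 and nanog, transcription factors of the early embryo. Pou5f3 was 98.4 CPM in wild type and 52.9 CPM in the mutant, a log2 fold change of -0.89 ± 0.11 (edgeR adjusted p = 0.00035). Nanog was 10 and 4.01 CPM, a change of -1.31 ± 0.21 (edgeR adjusted p = 0.00211). Bcl2l10, a regulator of cell death, went up from 83.4 to 133 CPM, a change of 0.68 ± 0.14 (edgeR adjusted p = 0.00788). These calls held when any library was left out, with edgeR adjusted p up to 0.0458 for bcl2l10. In size all 3 were smaller than the difference of any of the 10 genes. Those were chosen for large differences at this stage, so nothing is read from this comparison.

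At later stages between 3 and 6 of the 10 genes stood apart between the genotypes. At 25 hpf 2 were lower and 2 higher without overlap, where 30.2% of all tested genes stood apart in either direction. At 2 day it was 3 lower and 3 higher against 31.7%, of which cnn1a rests on 3 counts and 1 count. At 5 day it was 3 lower and 2 higher against 33%, at 9 day 2 lower and 2 higher against 21.8%, and at 14 day 1 lower and 2 higher against 27.3%. These counts share the wild-type and mutant libraries of their stage with the selection, so they describe the genes only. Fitted sizes were smaller than at 1 somite: beyond pmepa1, the only later log2 fold change past 1 in either direction was that of cacna1ba at 25 hpf, -1.24 ± 0.16. Cnn1a and cdhr2 had too few counts to be fitted at 25 hpf and 2 day. The median absolute log2 fold change of all genes at the later stages lay between 0.172 and 0.242. Against that, wtip at 9 day, at -0.96 ± 0.32, ranked 759 of 22143 genes. A list of 16 larval organ genes, a check of stage, also differed: it summed to 8140 to 8340 CPM in the mutant and 4840 to 5530 CPM in wild type at 25 hpf, and to 28900 to 31100 and 22400 to 23300 CPM at 5 day. At 25 hpf 8 of its 10 tested genes were higher in the mutant, where 6.82% of all genes were, and at 5 day 5 of 16, where 6.17% were. At 1 somite 1 of its 4 tested genes was higher, where 6.77% of all genes were. At 25 hpf mbpa was at 0 in both genotypes and rho in the mutant. The part of these organ genes in the later differences of the 10 genes was not tested.

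Stage changes in wild type after 25 hpf were not themselves used to choose the genes and were tested. The wild-type libraries of these stages did take part in the choice, through the genotype differences, so the tests are not wholly free of it. Between 25 hpf and 2 day 4 of the 8 genes that could be tested rose and 3 fell, a step in which 59.7% of all genes changed. The neuronal genes map6a and unc80 rose by 2.05 ± 0.23 (edgeR adjusted p = 3.98e-06) and 1.63 ± 0.31 (edgeR adjusted p = 0.00041) on the log2 scale. Sulf2b rose by 1.24 ± 0.09 (edgeR adjusted p = 9.09e-08). Pmepa1 rose by 1.52 ± 0.43 (edgeR adjusted p = 0.00785), a call lost with DESeq2 (adjusted p = 0.107). Hdc changed by -0.97 ± 0.16 (edgeR adjusted p = 0.0001) and wtip by -0.65 ± 0.17 (edgeR adjusted p = 0.00409). Lbh changed by -0.56 ± 0.21 (edgeR adjusted p = 0.0302), a call lost without wild type 2 or 3 of 25 hpf or wild type 1 or 2 of 2 day (adjusted p from 0.0889 to 0.0969) and with DESeq2 (adjusted p = 0.0926). Cacna1ba, with a change of 0.13 ± 0.13, did not pass (edgeR adjusted p = 0.406).

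Between 2 and 5 day 4 of the 8 genes with at least 10 counts in both stages rose and 1 fell, against 61% of all genes changed. Cdhr2 and cnn1a had fewer counts at 2 day and passed the filter on low counts only through the 5 day libraries, so they are described with no test. Cdhr2 was 0.13, 0.363 and 0.383 CPM at 2 day, from 7 counts, and 51.3, 42.2 and 43.0 CPM at 5 day. No library of the earlier stage came near the later range. Lbh rose by 1.64 ± 0.18 (edgeR adjusted p = 1.3e-05) and unc80 by 1.35 ± 0.22 (edgeR adjusted p = 0.00023). Cnn1a held 3 counts at 2 day and 69 at 5 day, a 22.8-fold higher level with a counting interval of 7.48 to 113. Cacna1ba rose by 0.51 ± 0.14 (edgeR adjusted p = 0.00849) and map6a by 0.55 ± 0.19 (edgeR adjusted p = 0.023), but the first was lost without wild type 2 of 2 day (adjusted p = 0.0554) and the second without wild type 1 or 2 of 2 day or wild type 2 of 5 day (adjusted p from 0.0718 to 0.104). Wtip fell by 1.07 on the log2 scale (SE 0.29, edgeR adjusted p = 0.00691). Pmepa1, sulf2b and hdc did not pass, although pmepa1 did without wild type 1 of 5 day, with a rise of 0.60 (edgeR adjusted p = 0.0395).

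Between 5 and 9 day 6 fell and 1 rose, against 49.3% of all genes changed. The excitable cell genes fell together: unc80 changed by -1.15 ± 0.13 (edgeR adjusted p = 7.7e-05), cacna1ba by -1.04 ± 0.12 (edgeR adjusted p = 8.81e-05) and map6a by -0.85 ± 0.15 (edgeR adjusted p = 0.0011). Of the other calcium channel subunit genes 19 of 24 fell in the same step, where 5346 of all 22342 genes fell. Hdc changed by -0.85 ± 0.22 (edgeR adjusted p = 0.00784) and lbh rose by 0.52 ± 0.13 (edgeR adjusted p = 0.00636). Cnn1a was 1.66, 3.62 and 3.06 CPM at 5 day and 1.21, 0.989 and 0.474 CPM at 9 day, a fitted change of -1.60 ± 0.42. It passed the filter on low counts only through the 5 day libraries. It is thus described with no p, though it is 1 of the 6, and its call was lost without wild type 2 of 5 day. Pmepa1 changed by -2.01 ± 0.74 (edgeR adjusted p = 0.0422), a call lost without wild type 2 or 3 of either stage (adjusted p from 0.0631 to 0.126) and with DESeq2 (adjusted p = 0.173).

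Between 9 and 14 day only hdc passed, with 16.8% of all genes changed. It rose by 0.74 ± 0.21 (edgeR adjusted p = 0.0377), and the call was lost without any 1 of wild type 1, 2 and 3 of 9 day or wild type 2 and 3 of 14 day (adjusted p from 0.0501 to 0.15). Pmepa1 passed in this step without wild type 1 of 9 day, with a rise of 3.43 (edgeR adjusted p = 0.00364).

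**Figure D3:**
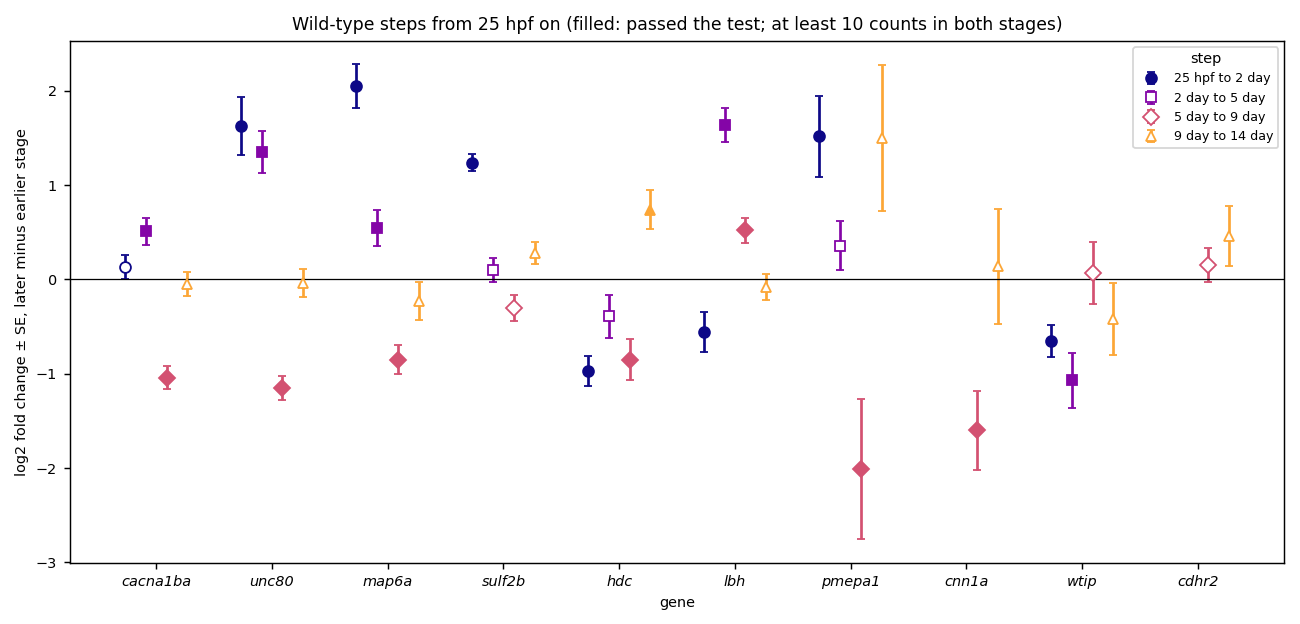
Log2 fold change with its standard error for each gene in each wild-type step from 25 hpf on, later stage minus earlier stage. Filled symbols passed the edgeR test at an adjusted p of 0.05. Genes with fewer than 10 counts in a stage of the step are left out, cdhr2 and cnn1a from 2 to 5 day among them. Cnn1a from 5 to 9 day passed the filter on low counts only through the 5 day libraries and is a description. Map6a, unc80 and cacna1ba lie above 0 up to 5 day and below 0 from 5 to 9 day.

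Relatives and partners of the 10 genes were tested at 1 somite in 9 lists with the same test. Of their 86 tested genes 11 were called, 12.8%, near the 13.6% of all genes, so the count says nothing particular to the lists. Among 9 tested calcium channel subunit genes 1 differed: cacnb4b, a beta subunit that binds the pore subunit, was 20.6 CPM in wild type and 7.75 CPM in the mutant, a log2 fold change of -1.41 ± 0.15 (edgeR adjusted p = 0.000117). It and cacna1ba were thus both lower. The 1 tested gene of the NALCN complex did not pass. Among 8 microtubule genes 1 was lower: map6b, the paralog of map6a, at 2.75 CPM in wild type and 1.03 CPM in the mutant. Its fitted change was -1.37 ± 0.36, opposite to map6a in sign. The mutant level of map6b was too low to pass the filter on low counts without the wild-type libraries, so it is described with no p. Its call was also lost when wild type 1, wild type 2, mutant 1 or mutant 2 was omitted.

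Of 16 tested genes of heparan sulfate synthesis and sulfation none was higher and 1 was lower. Of 4 tested histamine and related amine genes 1 was higher and 1 lower, the higher being ddc, the decarboxylase of dopamine and serotonin synthesis, from 12.6 to 22.7 CPM with a change of 0.85 ± 0.18 (edgeR adjusted p = 0.00848). Of 18 tested genes of Smad signalling and its inhibitors 1 was higher and 1 lower, the lower being lft2, a Nodal antagonist, with a change of -0.84 ± 0.14 (edgeR adjusted p = 0.0027).

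Among 10 tested calponin and smooth muscle genes only acta2, smooth muscle actin, differed. It was 7.52 CPM in wild type and 2.67 CPM in the mutant, a change of -1.51 ± 0.26 (edgeR adjusted p = 0.00314), the direction of cnn1a. Of 14 tested Ajuba and zyxin family genes 1 was higher and none lower. Of 6 tested brush border genes 2 were lower, among them anks4b, a scaffold of the microvillar tip complex, with a change of -1.47 ± 0.30 (edgeR adjusted p = 0.00836), opposite to cdhr2. The calls of cacnb4b, ddc, lft2, acta2 and anks4b held when any single library was left out. The median log2 fold change of the 9 lists lay between -0.29, from the single NALCN gene, and 0.17, against 0.02 for all genes.

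The genes beside the 10 on the chromosome were looked at after the values were known. With 2 protein-coding genes on each side, 26 of 40 neighbours could be tested at 1 somite, and 5 were lower and none higher in the mutant. That is 19.2%, against 13.6% of all genes. The count fell to 1 without mutant 1, to 2 without wild type 1 or mutant 3, to 3 without wild type 3 or with DESeq2, and to 1 with a replicate block. The neighbour of cnn1a, pld6, was 3.93 CPM in wild type and 0.392 CPM in the mutant, a fitted change of -3.33 ± 0.42. Its mutant level was too low to pass the filter on low counts without the wild-type libraries. It is thus described with no p, though it is 1 of the 5. The other 4 changed by less than 1 on the log2 scale.

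Single transcripts could be followed for some of the genes. The curated sulf2b transcript took 60.1%, 53.6% and 49.0% of the gene's estimated counts in wild type at 25 hpf and 30.3%, 17.0% and 20.6% in the mutant. At 2 day the shares were 80.3% ± 4.72 and 12.3% ± 3.73, at 5 day 79.9% ± 1.36 and 11.7% ± 7.92, and at 14 day 44.9% ± 6.13 and 9.6% ± 6.45 (SD, n = 3 each), without overlap. At 9 day the groups overlapped, with 71.8%, 21.6% and 44.8% in wild type and 21.3%, 26.1% and 6.26% in the mutant. The gene total of sulf2b differed little at these stages, so what differed was how its counts were divided between this transcript and the rest. Of 38 reference sulf2b models only this 1 could be matched, and it held 33.9% of the gene's counts over all libraries. The models that took the rest were not identified. At 1 somite, where the gene had 287 counts in the mutant, the curated transcript held no more than 1.73 in any mutant library. Nearly all of the mutant counts there thus lay outside it. Reads shared by models were divided by estimation, and these shares, seen first and then described, carry no test.

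**Figure D4:**
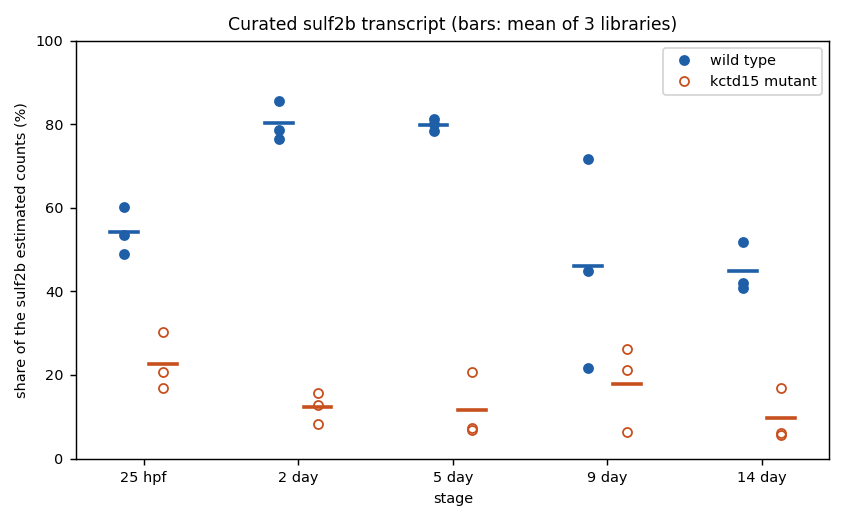
Share of the sulf2b estimated counts assigned to the curated transcript, in percent, by stage from 25 hpf on. Filled points are wild-type libraries, open points are mutant libraries, and bars are means of 3 libraries. The genotypes are apart at all stages shown except 9 day, where wild type ranges from 21.6% to 71.8%.

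Hdc has 2 transcript models. The share of its curated model was lower in the mutant at 25 hpf, 21.0% ± 2.84 against 31.7% ± 1.25, at 9 day, 20.8% ± 1.34 against 39.6% ± 5.94, and at 14 day, 19.1% ± 6.12 against 45.7% ± 16.1. The groups did not overlap at those stages and did at 1 somite, 2 day and 5 day. For lbh, cnn1a, wtip and pmepa1 a single model held all or nearly all counts, and for unc80 and cdhr2 no model could be matched. Over all libraries cacna1ba and map6a were covered to 13.2% and 37.2% only. At 1 somite a matched map6a model held 5.34%, 3.11% and 2.33% of the mutant counts, and the other matched models held none. Most mutant map6a counts there thus lay outside the matched models. A matched cacna1ba model held 41.4, 80.8 and 57.9 estimated counts in wild type at 1 somite, or 38.0%, 48.9% and 64.2%. In the mutant it held 7.0, 6.0 and 0.912. These values carry no test.

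The course over the 12 stage and genotype groups was most like that of genes differing from member to member, by Pearson's r of the group means on a log2 scale over 16393 genes, as a description. Nearest to cacna1ba were ptk7b (0.93) and plce1 (0.9), to unc80 cdc42se2 (0.982) and soga3b (0.976), and to map6a kirrel3a (0.959) and unc5da (0.955). Sulf2b was most like arhgef4 (0.99) and tns2a (0.983), hdc like ak8 (0.901) and cfap126 (0.9), lbh like ggh (0.909) and h2afy (0.903), and pmepa1 like myl2b (0.911) and inpp5f (0.896). Cnn1a was most like unc93b1 (0.887) and hopx (0.876), wtip like rab34b (0.958) and her4.3 (0.852), and cdhr2 like dhrs9 (0.989) and cyp2p8 (0.977). None of the 10 was among the nearest genes of another. All points share the same 36 libraries.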

How the data were processed

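The authors' deposited gene and transcript tables hold estimated counts (expected counts, not normalized) for 30490 genes and 54435 transcripts in 36 libraries; 84.1% of gene values are not whole. Trimmomatic 0.36, kallisto 0.43.0, edgeR and the build GRCz10 are named, per the submitters' processing notes; their settings, and how reads shared by similar transcripts were divided, are not given in the sources used here. The deposited normalized table was not used. No column was left unmapped (0).

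Counts were rounded to whole numbers and tested per stage, or per pair of wild-type stages, with edgeR 4.0.16 (R 4.3.3; filterByExpr, TMM, glmQLFit, glmQLFTest), with Benjamini-Hochberg adjustment over all genes tested and a threshold of 0.05. The script was tested on simulated data. SE is the log2 fold change over the root of F. Levels are CPM with TMM factors (0.788 to 1.17) over all 36 libraries. Count ratios have exact 95% intervals, with a floor of 3 counts over a group; they cover counting error only. p-values measure the spread between libraries, whose clutches and animals are not stated. Likeness used log2(CPM + 0.5).

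The 10 genes, the lists and the tests were chosen with earlier results of these data known. Named besides the 10 genes were kctd15a, kctd15b, up to 3 list genes passing at 1 somite by smallest p, and the 2 genes most like each member. Of those list genes, calls that a left-out library would end are counted but mostly not named. The neighbours and transcript shares were added after values were seen. A RefSeq gene table (GRCz12tu) served only for synonyms, gene order and transcript names. Paralogs may share reads. Same-numbered libraries of the groups compared deviated together in no contrast (all 3 correlations above 0.1 in none), so numbers were not used as pairs. Alternatives were library size scaling, no count filter, a replicate block, DESeq2 1.42.0, a fit over all 36 libraries, and each library left out.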

Additional observations from a re-analysis of the deposited data

Results flagged for a closer look

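Pmepa1, cacna1ba and lbh had genotype differences at a later stage in the direction opposite to 1 somite, with all libraries of the groups apart at both stages. Pmepa1, higher in the mutant at 1 somite, was lower at 2 day, 5 day and 14 day, with log2 fold changes of -2.47, -2.70 and -2.42. Cacna1ba, lower in the mutant at 1 somite, was higher at 2 day by 0.50. Lbh, lower at 1 somite, was higher at 14 day by 0.25. The difference between stages was not tested for any of them, since the genes were chosen on these contrasts.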

How the results depend on the processing

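The number of genes called, which is the background of the 10 genes, moved with the settings. At 1 somite 2285 genes were called, 1317 with a replicate block and 1397 to 2862 with a library left out. At 25 hpf 2564 were called, 1473 in a fit over all 36 libraries and 1725 to 2411 with a library left out. At 2 day 1388 were called, 790 with the replicate block, 3016 over all 36 libraries and 555 to 2497. At 5 day 3014 were called, 1636 with the replicate block and 1381 to 4723. At 9 day 422 were called, 640 with DESeq2, 750 over all 36 libraries and 205 to 375. At 14 day 1073 were called, 2705 over all 36 libraries and 556 to 1059. Between 9 and 14 day in wild type 3759 were called, 5874 with library size scaling only and 2414 to 4031. The earlier wild-type steps kept within 1.5 times, at 14595 to 15235, 10920 to 12223, 11649 to 13266 and 9593 to 10248 with a library left out. The cause of these moves was not tested.

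Library size scaling without TMM changed the balance of calls, to 1395 higher and 915 lower at 1 somite (1141 and 1144 with TMM), 984 and 1740 at 25 hpf (1288 and 1276), 569 and 3586 at 5 day (1328 and 1686), and 132 and 331 at 9 day (174 and 248). In the wild-type steps it gave 9928 and 5147 (8236 and 6937), 4439 and 6583 from 5 to 9 day (5673 and 5346), and 1355 and 4519 from 9 to 14 day (2087 and 1672). It put the median gene at 0.42 in the first step (0.12 with TMM), 0.12 from 2 to 5 day, -0.13 from 5 to 9 day, -0.22 from 9 to 14 day and, between genotypes, -0.17 at 5 day.

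Of the 10 genes' genotype differences, 643 of 672 values moved by less than their spread and none that stood apart changed sign. The 5 day values of map6a and unc80, with overlapping groups, turned from 0.08 and 0.05 to -0.09 and -0.13 with library size scaling. Where a 1 somite group held 3 counts or fewer the fitted value is uncertain: map6a was 6.39, and 9.07 without wild type 2; unc80 -4.88, and -7.93 without mutant 3; cdhr2 6.08, and 8.05 without wild type 1. Of 564 values for wild-type steps none reversed, 23 lost and 4 gained a call. Sulf2b passed from 5 to 9 day with library size scaling (adjusted p = 0.0327) and over all 36 libraries (adjusted p = 0.0142), and hdc from 9 to 14 day did not with library size scaling (adjusted p = 0.0879) or the replicate block (adjusted p = 0.0691). Of 24 list and neighbour genes called at 1 somite, 10 kept the call whichever library was left out. Depth limits unc80, map6a, cnn1a, cdhr2 and pmepa1 most at 1 somite, where a group held 4 counts or fewer.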
